A study of Homo sapiens with 6 samples.

Results

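The activating receptors of natural killer (NK) cells and the adaptor proteins that carry their signal were followed as 10 genes in NK92 cells with and without knockdown of miR155HG. The genes were taken by symbol from the 36601 genes in the count table, and all 10 have an entry. They comprise 6 receptors (NCR1, NCR3, KLRK1, FCGR3A, CD226 and CD244) and 4 adaptors (HCST, TYROBP, FCER1G and CD247). NK92 is a human NK lymphoma line that grows in IL-2. The line had been made to carry a stable shRNA, either a control (shCtrl) or one directed at miR155HG (shmiR155HG), and every culture was stimulated for 12 h with IL-2 at 1000 U/mL and IL-12 at 10 ng/mL before poly(A) RNA was sequenced. Each group had 3 libraries, with total counts from 33454786 to 39157264, and no unstimulated library was analysed here, so the effect of the cytokines themselves cannot be read. The labels do not say whether the libraries of a group came from separate cultures or transductions, so p-values measure only the spread between these libraries. The sources used here do not give how many shRNA sequences or cell lines stand behind each group.

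An NK cell weighs activating against inhibitory signals from the surface of another cell. Most activating receptors have short tails and signal through partner chains. CD247 (CD3ζ), FCER1G (the Fc receptor γ chain) and TYROBP (DAP12) carry ITAMs, tyrosine motifs that recruit the kinases SYK and ZAP70, whereas HCST (DAP10) carries a different tyrosine motif that recruits PI3-kinase and GRB2. NCR1 (NKp46), NCR3 (NKp30) and FCGR3A (CD16a) pair with CD247 or FCER1G, and KLRK1 (NKG2D) pairs with HCST. CD244 (2B4) and CD226 (DNAM-1) signal through their own tails, CD244 with the help of SH2D1A (SAP) and SH2D1B (EAT-2). Several of these receptors need their chain to reach the cell surface.

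The targeted gene was lower in each shmiR155HG library. MIR155HG counts were 73, 67 and 62 across the shCtrl libraries (replicates 1 to 3) against 28, 19 and 10 with the knockdown (log2 fold change −1.78, SE 0.43; edgeR quasi-likelihood adjusted p = 0.00450). A filter on low counts kept genes with more than 1 CPM, the count scaled to the size of the library, in at least 2 libraries. MIR155HG passed it through its shCtrl libraries, with a mean of 1.77 CPM there and 0.509 CPM in shmiR155HG libraries. With no filter the log2 fold change was −1.79 (edgeR quasi-likelihood adjusted p = 0.00216). The NK identity of the line was checked on 10 markers, of which 9 passed the same filter. Their summed level lay between 4188 and 4199 CPM in shCtrl and between 3812 and 3954 CPM in shmiR155HG libraries, and GZMB alone went from a mean of 1195 to 542.9 CPM. Of the 9, GZMB and PRF1 fell, IL2RB, EOMES and TBX21 rose, and 4 did not pass the test. In edgeR's quasi-likelihood test at an adjusted p under 0.05, 8.02% of all genes tested were lower and 7.26% higher. CD7 was the marker below the filter, with 0 to 32 counts in a library. Of 8 T cell markers, CD3E (a mean of 330.5 CPM in shCtrl and 335.3 CPM in shmiR155HG) and TRAC (72.4 CPM in both) were present, whereas CD8B was at 0 in all libraries and CD3D, CD3G, CD4, CD5 and CD8A did not pass the filter, at 0 to 35 counts in a library. The 4 B cell markers summed to at most 1.34 CPM and the 4 erythroid markers to at most 0.0598 CPM. A pair of RNAs that mostly lack a poly(A) tail moved with the groups. HIST1H4C had a mean of 0.256 CPM in shCtrl and 2.41 CPM in shmiR155HG, and RMRP had 0.280 and 2.04 CPM. Both passed the filter through their shmiR155HG libraries, where they were high, and no wider set of such RNAs was followed here. The part of HIST1H4C and RMRP in the results for the receptors and adaptors was not tested.

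Knockdown of miR155HG went with small decreases in a pair of the receptors. NCR3, which binds B7-H6 and BAG6, and CD244, the receptor for CD48, fell, to 84.7% and 92.0% of the shCtrl level, and the other 8 genes did not pass the test. Thus 2 of 10 were called lower at an adjusted p under 0.05 (edgeR's quasi-likelihood test, Benjamini-Hochberg adjustment over the 12263 genes tested), where 8.02% of all genes tested were called lower and 15.3% were called in either direction. None of the 10 was called higher, where 7.26% of all genes tested were called higher. At an unadjusted p under 0.05, 5 of the 10 were lower and 0 were higher, where 14.1% and 13.2% of all genes were. DESeq2 called 3 of the 10 lower, where it called 8.46% of all genes lower and 7.91% higher. With limma-voom 2 were lower, where 7.43% of all genes were lower and 6.92% higher. With the study's thresholds, a P below 0.01 in edgeR's exact test plus a change above 1.2-fold, 1 was lower, where 3.80% of all genes were lower and 4.49% higher. None of these tools called any of the 10 higher. No gene of the 10 joined an adjusted p under 0.05 to an absolute log2 fold change over 0.5, where 2.69% of all genes did. In 6 of the 10 genes every shmiR155HG library lay below every shCtrl library, and in no gene did every shmiR155HG library lie above; among all genes tested these shares were 15.6% and 15.2%, or 30.8% together. FCER1G passed the filter through its shCtrl libraries, the group where it was high, and leaving it out these counts were 4 of 9 at an unadjusted p under 0.05 and 5 of 9 without overlap. The median log2 fold change of the 10 genes was −0.15, and that of all genes tested was 0.00097. In a bulk sample, fewer cells with a transcript and less transcript per cell cannot be told apart.

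**Figure D1:**
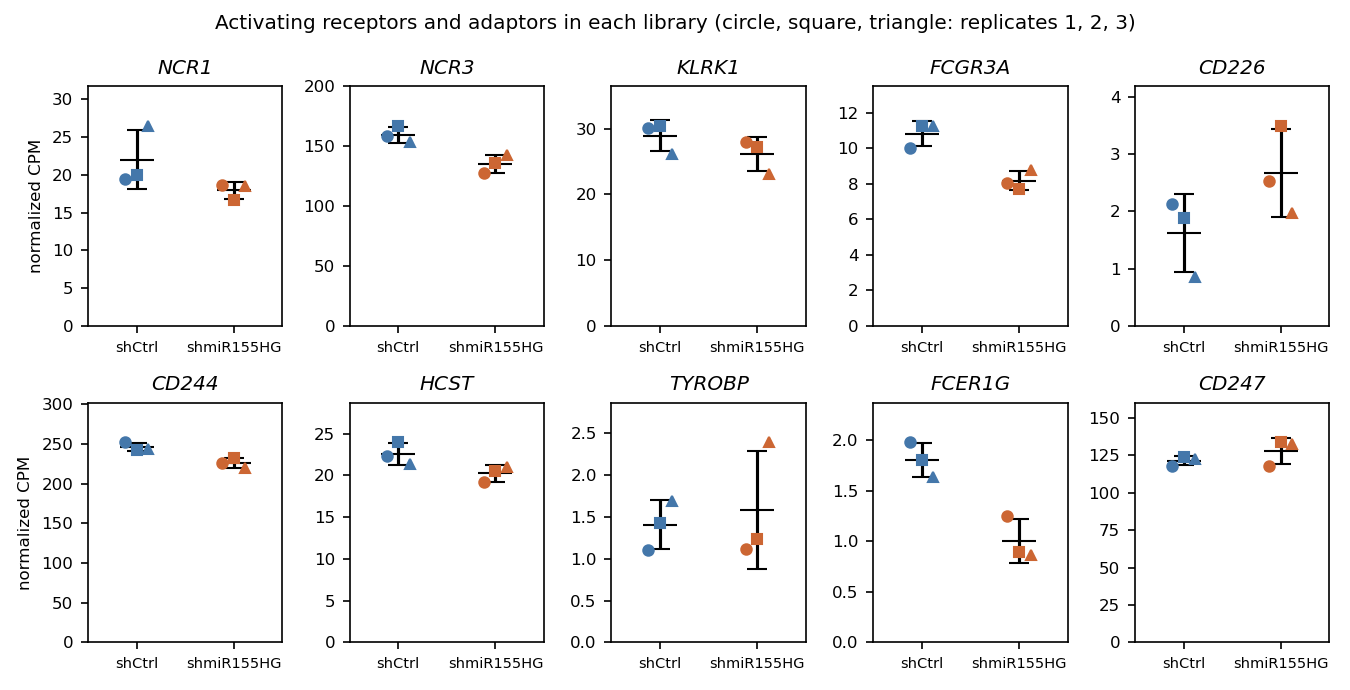
Normalized CPM (vertical axes, starting at 0) of each receptor and adaptor gene in the 3 shCtrl (blue) and 3 shmiR155HG (orange) libraries, with the mean and SD in black. NCR1, NCR3, FCGR3A, CD244, HCST and FCER1G have every orange point below every blue point, and the other 4 genes overlap.

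NCR3 had the clearest difference. It is ENSG00000204475, a 4-exon gene of the MHC region (hg38 chromosome 6, bases 31588895 to 31593006, minus strand). Its level was 159, 167 and 154 CPM in shCtrl replicates 1, 2 and 3 and 127, 136 and 143 CPM in shmiR155HG replicates 1, 2 and 3. The lowest shCtrl library was still above the highest shmiR155HG library. The edgeR fit gave a log2 fold change of −0.24 with SE 0.047 and adjusted p = 0.000577, with a 95% interval from 79.2% to 90.5% of the shCtrl level. This is a fold change under 1.2, so NCR3 is not called by the study's rule. LST1, an immune gene on the opposite strand whose exons overlap those of NCR3, also fell, from a mean of 13.4 to 9.63 CPM (log2 fold change −0.47, adjusted p = 0.0223 by edgeR). Without strand information the reads of the pair cannot be fully told apart, and the strand setting of the counting is not given in the sources used here.

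CD244 was the receptor with the most counts and had a smaller difference. It is ENSG00000122223, a 9-exon gene (hg38 chromosome 1, bases 160830160 to 160862887, minus strand). Its level was 252, 243 and 243 CPM in shCtrl replicates and 226, 232 and 220 CPM in shmiR155HG replicates. The groups did not overlap, and the fitted log2 fold change was −0.12 (SE 0.038, adjusted p = 0.0276 by edgeR), with a 95% interval from 87.2% to 97.0% of the shCtrl level. The call was lost when any of 4 libraries was left out, and edgeR's adjusted p was then 0.120 without shCtrl replicate 1, 0.0566 without shCtrl replicate 2, 0.0775 without shmiR155HG replicate 1 and 0.148 without shmiR155HG replicate 3.

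NCR1, the receptor that marks NK cells across mammals, was lower in every shmiR155HG library but did not pass the adjusted test. It is ENSG00000189430 (hg38 chromosome 19, bases 54906148 to 54916140, plus strand). It was at 19.4, 20.0 and 26.5 CPM in shCtrl replicates 1, 2 and 3 and at 18.7, 16.7 and 18.5 CPM with the knockdown (log2 fold change −0.29, SE 0.12; edgeR adjusted p = 0.0981). Replicate 3 of shCtrl stood well above replicates 1 and 2, and without it the fitted log2 fold change was −0.13 (edgeR adjusted p = 0.529). The plot of CPM by library shows this point at the top of the NCR1 panel.

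FCGR3A, the receptor for the constant part of IgG antibodies, had the largest relative difference of the receptors with a lower mean in shmiR155HG cells. It is ENSG00000203747 (hg38 chromosome 1, bases 161541759 to 161550968, minus strand). Parental NK92 cells are generally described as lacking CD16 on their surface. By flow cytometry, the paper reported lower CD16, NKp30 and NKp46 signal on shmiR155HG than on control NK92 cells, which is protein at a later time. The FCGR3A transcript was present at 10.0, 11.3 and 11.2 CPM in shCtrl libraries and 8.08, 7.70 and 8.76 CPM in shmiR155HG libraries. The groups did not overlap, and the fitted log2 fold change was −0.41 (SE 0.15, adjusted p = 0.0605 by edgeR, 95% interval from 61.2% to 92.9% of the shCtrl level). The call depended on the tool, since DESeq2 gave an adjusted p of 0.0395 and the study's rule called it lower, while limma-voom gave 0.0669. FCGR3B, a near-identical neighbour with 9 to 29 counts in a library, could take or give reads, and with both genes summed the fitted log2 fold change was −0.41 (adjusted p = 0.0551 by edgeR). The annotation also places a protein-coding gene, ENSG00000289768, over exons of both on the same strand. It has no entry in the count table, so the sum does not cover it.

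KLRK1, the receptor for the stress ligands MICA, MICB and the ULBP proteins, had a lower mean in shmiR155HG cells by about the spread between libraries. It is ENSG00000213809 (hg38 chromosome 12, bases 10372353 to 10391874, minus strand). Its level was 30.1, 30.4 and 26.2 CPM in shCtrl libraries and 28.0, 27.2 and 23.1 CPM in shmiR155HG libraries, and the groups overlapped. The fitted log2 fold change was −0.14 (SE 0.095, adjusted p = 0.353 by edgeR), and the 95% interval runs from 79.1% to 104% of the shCtrl level. The annotation places a readthrough gene, KLRC4-KLRK1, over the same exons, and it was not analysed here. It also places an antisense lncRNA over KLRK1, listed in the count table as AC022075.1, which had 389 to 569 counts in shCtrl and 154 to 350 in shmiR155HG libraries (log2 fold change −0.59, adjusted p = 0.380).

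CD226, a receptor for PVR and NECTIN2, was the scarcest of the receptors and the only receptor with a higher mean in shmiR155HG cells. It is ENSG00000150637 (hg38 chromosome 18, bases 69831158 to 69961803, minus strand), and exons of DOK6, with 0 to 14 counts in a library, overlap its own. Its counts were 83, 69 and 33 across shCtrl replicates 1 to 3 against 97, 133 and 66 with the knockdown, which are 0.847 to 2.13 CPM and 1.97 to 3.49 CPM. The lowest shmiR155HG library lay under the highest shCtrl library. The fitted log2 fold change was 0.72 (SE 0.35, adjusted p = 0.192 by edgeR), with an interval from 99.2% to 272.2% of the shCtrl level, and it was 0.41 without shCtrl replicate 3 and 0.47 without shmiR155HG replicate 2. At this depth neither no change nor a rise of more than 2-fold is outside the interval.

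**Figure D2:**
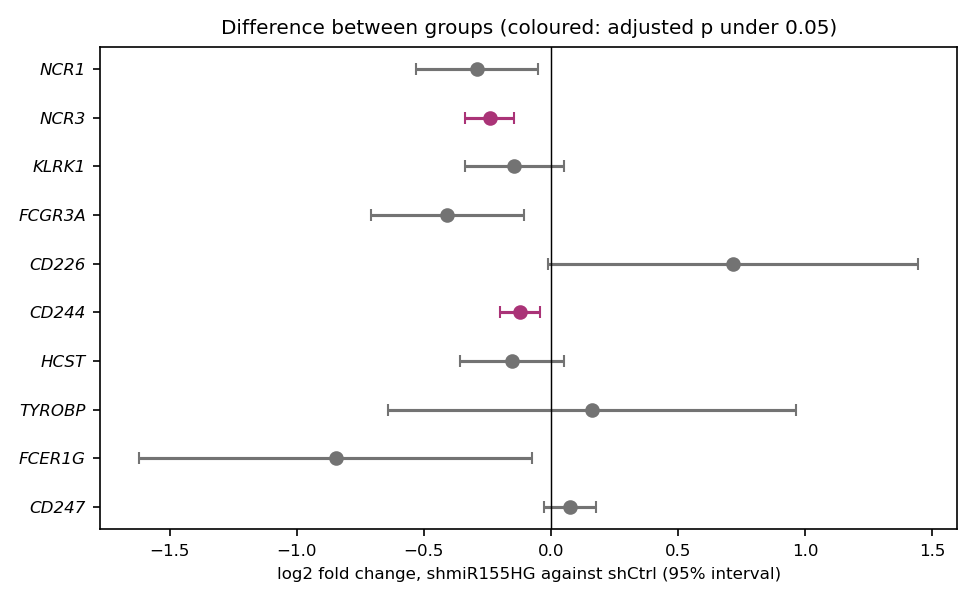
Log2 fold change of each gene (points) with its 95% interval (bars) from edgeR's quasi-likelihood fit, with values under 0 for genes lower in shmiR155HG cells. NCR3 and CD244, coloured, passed an adjusted p of 0.05, and the intervals of CD226, TYROBP and FCER1G are the widest.

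Among the adaptors, none was called in either direction by edgeR's quasi-likelihood test, by DESeq2, by limma-voom or under the study's rule. At an unadjusted p under 0.05, 1 of the 4, FCER1G, was lower, where 14.1% of all genes were lower and 13.2% higher. FCER1G passed the filter through its shCtrl libraries, where it was high, so this count was favoured by the filter. CD247, the ζ chain shared with the T cell receptor, had the most counts and the narrowest interval. It is ENSG00000198821 (hg38 chromosome 1, bases 167425027 to 167518640, minus strand). It was at 118, 124 and 123 CPM in shCtrl libraries and 118, 134 and 133 CPM in shmiR155HG libraries, and the groups overlapped (log2 fold change 0.08, SE 0.050; edgeR adjusted p = 0.350). The 95% interval lies between 98.2% and 113% of the shCtrl level, so a fall of the size seen for NCR3 lies outside it. POU2F1, on the opposite strand, shares exonic sequence with CD247 and had a log2 fold change of −0.15 (adjusted p = 0.195).

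HCST, the partner of KLRK1, was at 22.3, 23.9 and 21.3 CPM in shCtrl libraries and at 19.2, 20.5 and 21.1 CPM in shmiR155HG libraries. The groups just failed to overlap, and the fitted log2 fold change was −0.15 (SE 0.10, adjusted p = 0.346 by edgeR), close to that of KLRK1. HCST and TYROBP face each other on hg38 chromosome 19 with 23 bases between them, HCST at bases 35902529 to 35904377 (plus strand) and TYROBP at 35904401 to 35908295 (minus strand). TYROBP, the partner of NCR2, of KLRC2 with CD94 and of activating KIRs, was near the limit of the filter. It had 43, 52 and 66 counts in shCtrl libraries and 43, 47 and 80 counts in shmiR155HG libraries, and the groups overlapped. The fitted log2 fold change was 0.16 (SE 0.39, adjusted p = 0.840 by edgeR) and −0.26 without shmiR155HG replicate 3, so no direction can be given.

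FCER1G, which serves NCR1 and FCGR3A as well as Fc receptors of myeloid cells and mast cells, had few counts. It is ENSG00000158869 (hg38 chromosome 1, bases 161215234 to 161220699, plus strand). It had 77, 66 and 64 counts in shCtrl libraries and 48, 34 and 29 counts in shmiR155HG libraries, which are 1.64 to 1.98 CPM and 0.867 to 1.25 CPM. Every shmiR155HG library lay below every shCtrl library. The fitted log2 fold change was −0.85 (SE 0.38, adjusted p = 0.140 by edgeR), and the interval runs from 32.6% to 94.99% of the shCtrl level. Only 4 libraries, of which 3 were shCtrl libraries, had FCER1G over the filter's limit, so a lower level in shmiR155HG cells was favoured by the filter. With no filter the value was −0.85 (edgeR adjusted p = 0.214). CD226 was over the limit in 5 libraries and the other 8 genes in all 6. FCER1G, TYROBP and FCGR3A are also myeloid genes, so 8 myeloid markers were followed beside them. SPI1, MS4A7 and CD163 were at 0 in all libraries, and LYZ and FCGR1A had at most 3 counts in a library and CD14 at most 23. The summed myeloid level was 128 to 143 CPM in shCtrl and 102 to 108 CPM in shmiR155HG libraries, nearly all of it ITGAX (CD11c, also found on NK cells), which fell from a mean of 131.9 to 101.7 CPM (log2 fold change −0.38, adjusted p = 3.99e-06 by edgeR). Only 2 of the 8 markers, ITGAX and CSF1R, passed the filter, and CSF1R was at 4.82 and 3.47 CPM (edgeR adjusted p = 0.235). The part of these genes in the values of FCER1G and FCGR3A was not tested.

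The 10 genes span a wide range of levels. NCR3, CD244 and CD247 together held 85.3% to 86.6% of the counts of the 10 genes in a library. To compare genes, CPM was divided by the length of all exons of the gene in kilobases (CPM per kb). On this scale the order in shCtrl cells was NCR3 (130 ± 5.39, SD, n = 3), CD244 (85.1 ± 1.75), HCST (39.9 ± 2.34), CD247 (12.97 ± 0.324), NCR1 (11.6 ± 2.06), KLRK1 (9.49 ± 0.777), FCGR3A (2.19 ± 0.143), FCER1G (1.88 ± 0.175), TYROBP (1.55 ± 0.325) and CD226 (0.119 ± 0.0501). The ranges over the 3 shCtrl libraries overlapped between CD247 and NCR1, between FCGR3A and FCER1G, and between FCER1G and TYROBP, so these neighbours cannot be ordered. NCR1 and KLRK1 were separated by a narrow gap, with 10.3 as the lowest NCR1 value and 9.99 as the highest KLRK1 value. NCR3 and CD244 lay above 98.4% and 96.9% of the genes tested, while TYROBP and FCER1G lay above 23.4% and 26.0% and CD226 above 1.38%.

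Among the receptors NCR3 and CD244 had the highest levels per kb, and among the adaptors HCST and CD247. NCR3 was 11.2 times the level of NCR1 per kb of exon, and HCST was 25.7 times that of TYROBP and 4.20 times that of KLRK1, its receptor. By canonical transcript length these ratios were 7.92, 16.3 and 2.18. Of the summed per-kb level of the 4 adaptors in shCtrl cells, HCST made up 70.9%, CD247 23.0%, FCER1G 3.34% and TYROBP 2.76%. In shmiR155HG cells these shares were 68.6%, 26.1%, 1.99% and 3.33%. By canonical length the shCtrl shares turned to 62.6% for CD247 and 32.9% for HCST, with 2.53% for FCER1G and 2.02% for TYROBP. The order of HCST and CD247 depends on the length used, because CD247 has 9361 bases of exon in all its transcripts but 1600 in the canonical one. With the canonical length CD247 reached 75.9 CPM per kb, above HCST at 39.9.

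**Figure D3:**
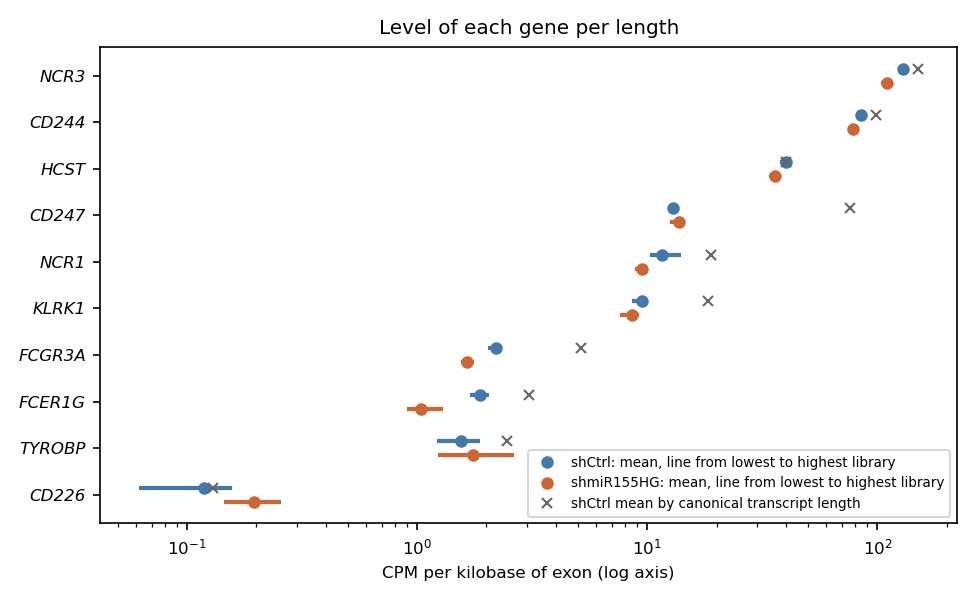
Level of each gene in CPM per kilobase of exon (horizontal log axis), as the mean (points) and the lowest to highest library (lines) in shCtrl (blue) and shmiR155HG (orange) cells, with crosses for the shCtrl mean by canonical transcript length. NCR3 and CD244 lie at the top, CD226 at the bottom, and CD247 moves furthest with the length used.

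Whether a receptor moved relative to its adaptor was read from the log2 ratio of their counts within each library, which does not depend on how libraries are scaled. For 6 pairs the groups were compared with a two-sided exact permutation test, where 3 against 3 libraries cannot give a p below 0.1, so no pair could pass 0.05. NCR3 relative to CD247 was lower in shmiR155HG cells, with ratios of 0.43, 0.43 and 0.33 in shCtrl libraries and 0.11, 0.03 and 0.10 in shmiR155HG libraries. The difference was −0.32 on the log2 scale and the groups did not overlap (exact p = 0.1, adjusted p = 0.2 over the 6 pairs). NCR1 relative to CD247 differed by −0.35, also with no overlap (exact p = 0.1, adjusted p = 0.2), and by −0.22 without shCtrl replicate 3. CD247 relative to FCER1G, the ITAM chains that serve the same receptors, differed by 0.94 with no overlap (exact p = 0.1, adjusted p = 0.2). Its shCtrl ratios were 5.90, 6.09 and 6.22 and its shmiR155HG ratios 6.56, 7.22 and 7.26. FCER1G had 48, 34 and 29 counts in shmiR155HG libraries and passed the filter through shCtrl, where it was high. A difference in this direction was therefore favoured by the filter.

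The ratio of KLRK1 to HCST overlapped between the groups. It was 0.36 ± 0.071 (SD, n = 3) in shCtrl and 0.36 ± 0.21 (SD, n = 3) in shmiR155HG libraries, a difference of 0.0055 (exact permutation p = 1, adjusted p = 1). FCGR3A relative to FCER1G differed by 0.46 (exact p = 0.2, adjusted p = 0.3) and HCST relative to TYROBP by −0.26 (exact p = 0.6, adjusted p = 0.72), and in both the groups overlapped. The filter's effect on FCER1G also bears on the ratio of FCGR3A to FCER1G.

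**Figure D4:**
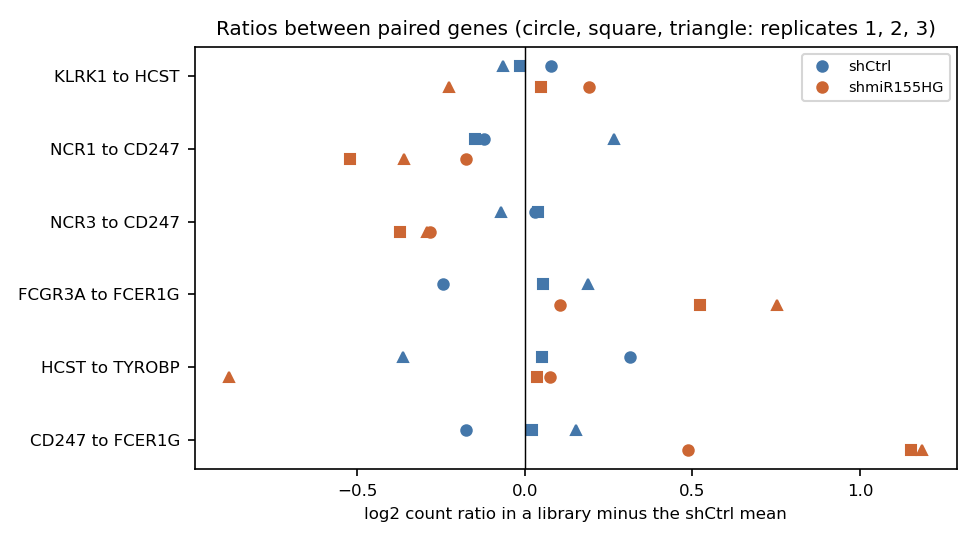
Log2 ratio of the counts of paired genes in each library minus the shCtrl mean of that ratio (horizontal axis), for shCtrl (blue) and shmiR155HG (orange) libraries. The groups are separated for NCR1 to CD247, NCR3 to CD247 and CD247 to FCER1G, and overlap for the other 3 ratios.

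Beyond these genes, 17 of 24 other activating or costimulatory receptors have an entry in the count table and 13 passed the filter. Of these, 3 fell and 0 rose in edgeR's quasi-likelihood test (8.02% and 7.26% among all genes tested). At an unadjusted p under 0.05, 3 were lower and 2 higher, where 14.1% and 13.2% of all genes were. The study's rule with the exact test called 3 lower and 0 higher (3.80% and 4.49% among all genes). DESeq2 called 3 lower and 0 higher (8.46% and 7.91%), and so did limma-voom (7.43% and 6.92%). The 3 were KIR2DL4, a receptor for HLA-G that pairs with FCER1G, and the SLAM family receptors SLAMF1 and SLAMF7, relatives of CD244. KIR2DL4 went from 89.6 to 62.8 CPM (log2 fold change −0.51, SE 0.059, adjusted p = 3.33e-07 by edgeR), and reads can be shared among KIR genes. SLAMF7 went from 480.2 to 395.0 CPM (log2 fold change −0.28, adjusted p = 3.41e-07) and SLAMF1 from 75.4 to 60.8 CPM (−0.31, adjusted p = 0.000419). SLAMF6, another member of that family, had a log2 fold change of −0.01 (adjusted p = 0.961). NCR2 (NKp44), the third natural cytotoxicity receptor, had −0.17 (adjusted p = 0.206), and KLRC2, a close copy of KLRC3, had 0.27 (adjusted p = 0.139). KLRF1 (NKp80) had 3 counts in 1 library and none in the others. The median log2 fold change of the 13 genes was −0.02.

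Of 30 genes that act below the adaptors, 28 passed the filter, with 4 higher, 2 lower and a median log2 fold change of 0.03, beside 7.26% higher and 8.02% lower among all genes tested. The 4 that rose were LCK (log2 fold change 0.19, adjusted p = 0.00306 by edgeR) and LYN (0.19, adjusted p = 0.00334), Src family kinases that phosphorylate ITAMs, the adaptor SH3BP2 (0.20, adjusted p = 0.00162) and INPP5D (SHIP1), a phosphatase that opposes PI3-kinase (0.18, adjusted p = 0.00332). The 2 that fell were the phospholipases PLCG2 (−0.26, adjusted p = 0.000837) and PLCG1 (−0.12, adjusted p = 0.0412), which release calcium after receptor engagement. PLCG1 lost its call in limma-voom, with the replicate block (adjusted p = 0.0501) and without shCtrl replicate 2 or 3 or shmiR155HG replicate 1 or 2 (adjusted p up to 0.173). All of these changes were smaller than 1.2-fold. The study's rule called 0 of the 28 genes, where it called 4.49% of all genes higher and 3.80% lower. At an unadjusted p under 0.05 edgeR's quasi-likelihood test had 6 higher and 4 lower, where 13.2% and 14.1% of all genes were. DESeq2 called 4 higher and 3 lower (7.91% and 8.46% among all genes), and limma-voom 4 higher and 1 lower (6.92% and 7.43%). For the kinases that dock on ITAMs, SYK had a log2 fold change of 0.04 (adjusted p = 0.789) and ZAP70 one of 0.08 (adjusted p = 0.183). SH2D1A and SH2D1B, the partners of CD244, had 0.04 (adjusted p = 0.718) and 0.08 (adjusted p = 0.569).

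NK92 cells also transcribed some ligands of their own receptors. Of 14 ligand genes, 6 passed the filter, with 2 lower and 1 higher, against the same shares among all genes. CD48, which binds CD244, fell from 369.0 to 309.0 CPM (log2 fold change −0.26, SE 0.036, adjusted p = 9.61e-06 by edgeR). MICB, which binds KLRK1, fell from 60.9 to 50.0 CPM (−0.28, adjusted p = 0.00280), and its close copy MICA had 3.44 and 2.12 CPM (−0.70, adjusted p = 0.110). BAG6, a chaperone that also binds NCR3, rose from 258.8 to 290.9 CPM (0.17, adjusted p = 0.00835), a call lost without shCtrl replicate 1 or without shmiR155HG replicate 3, where the highest adjusted p was 0.0752. Under the study's rule 1 of the 6 ligand genes, MICB, was lower and 0 were higher, so CD48 and BAG6 lost their calls. Among all genes tested that rule called 3.80% lower and 4.49% higher. ULBP2 and RAET1G had 0 counts in all libraries, and PVR and NECTIN2, the CD226 ligands, had at most 20 counts in a library. The 3 receptors that share ligands with CD226 had log2 fold changes of 0.11 for CD96 (adjusted p = 0.0341), 0.20 for TIGIT (adjusted p = 0.131) and 0.04 for PVRIG (adjusted p = 0.702). CD96 was called higher at 342.6 against 317.3 CPM, and leaving out any single library except shCtrl replicate 3 ended that call, with an adjusted p up to 0.152. It was also lost with no filter (edgeR adjusted p = 0.0540) and under the study's rule.

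**Figure D5:**
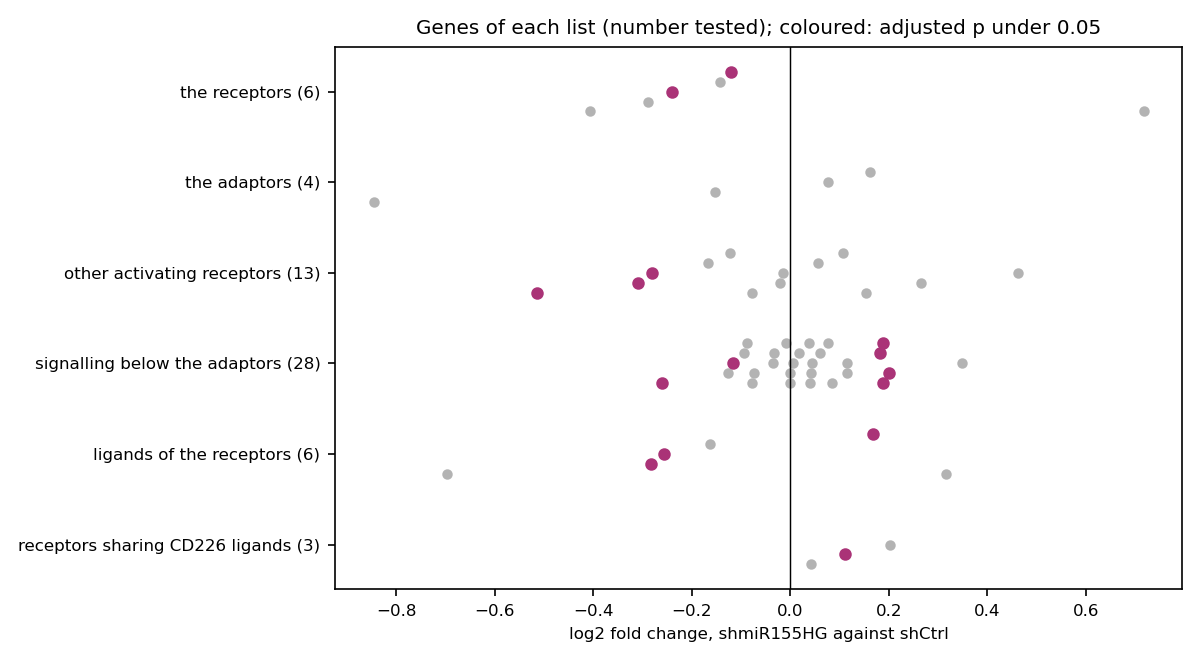
Log2 fold changes (horizontal axis) of the tested receptors, adaptors and genes of the 4 related lists, without the cell type markers, 1 point per gene, coloured where edgeR's adjusted p was under 0.05. Called genes lie between −0.51 (KIR2DL4) and 0.20 (SH3BP2), and the most distant grey points, FCER1G at −0.85, MICA at −0.70 and CD226 at 0.72, had few counts.

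Because miR155HG is also the host transcript of miR-155, the longest annotated 3′UTR of each gene was searched on the sense strand for a match to the seed of miR-155-5p. The mature sequence is shown with its seed, bases 2 to 8, in capitals (RefSeq, GRCh38.p14, plus strand of chromosome 21 from 25573983 to 25574006):
hsa-miR-155-5p: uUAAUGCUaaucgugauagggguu
The matching site, AGCATTA, was found in none of the 10 genes, whose searched 3′UTRs ran from 168 bases for TYROBP to 11040 bases for CD226. Among the 10754 genes tested with a 3′UTR, 12.6% held the site. The 3′UTRs of the 10 genes were shorter, with a median of 718 bases against 1481 bases, and the absence of these letters says nothing of other kinds of site.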

How the data were processed

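RNA-seq of 6 NK92 libraries (3 shCtrl, 3 shmiR155HG) was analysed. The deposited values are raw gene counts, which the authors made from paired reads of 150 bases with HISAT2 (hg38), StringTie and prepDE.py3 according to the methods. The annotation release, the strand setting and the read length given to prepDE.py3 are not given in the sources used here. Groups follow the sample titles; in replicates 2 and 3 of shmiR155HG the treatment field names the gene with a different number.

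A gene was tested if it exceeded 1 CPM in 2 or more libraries, which left 12263 genes. These were scaled with TMM and tested with edgeR 4.0.16 (quasi-likelihood, robust, Benjamini-Hochberg, adjusted p under 0.05) in R 4.3.3. CPM uses the summed counts of these genes. DESeq2 1.42.0, limma 3.58.1 (voom) and edgeR's exact test were alternatives, with other scalings and filters, halved counts, a GC correction, a replicate block and each library left out. Intervals are 95% intervals of the fitted fold change. Lengths, positions and 3′UTRs come from GENCODE 44, which matched 36366 of 36601 genes by ID.

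The genes and lists were chosen with earlier results of these data known. Named genes are the 10 genes, MIR155HG, overlapping genes and paralogs, TIGIT, CD96, PVRIG and, per list, up to 4 called genes in each direction; other list genes were named after their values were seen. Protein motifs were not analysed here.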

Additional observations from a re-analysis of the deposited data

How the results depend on the processing

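Counts of genes called lower among the 10 receptors and adaptors stayed at 2 (NCR3 and CD244) under another scaling, another filter, halved counts, the GC correction and limma-voom, and were 3 with DESeq2 (with FCGR3A) and 1 (FCGR3A) under the study's rule. Over all genes, the fits that stayed at 2 called from 897 of 12216 lower (GC correction) to 1052 of 21653 (no filter). Leaving out single libraries gave 1 to 2, with NCR3 called each time. Over all genes, these smaller fits called from 674 of 12162 lower (without shmiR155HG replicate 2) to 917 of 12183 (without shCtrl replicate 3). In the same 2 fits 580 and 891 genes were called higher. None of the 10 was called higher under any alternative. The replicate numbers pair no samples by the labels, and same-numbered libraries did not deviate together (correlations −0.018, 0.00098 and 0.0035). With the replicate block 2 of the 10 genes were called lower and 0 higher, and 909 genes lower and 829 higher over all genes. At a mean of 5 CPM or more, CD226, TYROBP, FCER1G and MIR155HG were removed, so no value exists. The planned sum of KLRK1 with KLRC4-KLRK1 was not run, since the latter was not analysed here. MIR155HG kept its call in its 16 alternatives (−2.13 to −1.52).

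Signs changed in few cases. TYROBP went to −0.26 without shmiR155HG replicate 3, over a range of −0.26 to 0.36 as each library was left out. PVRIG went to −0.041 with the GC correction and ranged from −0.0042 to 0.086. Over single libraries left out, the difference in the log2 ratio of KLRK1 to HCST ranged from −0.087 to 0.12 and that of HCST to TYROBP from −0.44 to 0.056. Depth limits CD226, TYROBP and FCER1G, which had a mean under 3 CPM in both groups.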
